A study of Mus musculus with 12 samples.

Results

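The transcripts described here belong to 10 genes for secreted proteins that bring neutrophils and monocytes into tissue or raise their number: the CXC chemokines Cxcl1, Cxcl2, Cxcl3 and Cxcl5, the CC chemokines Ccl2, Ccl3, Ccl4 and Ccl7, the growth factor Csf3 and the cytokine Il6. They were taken by name from a list, and all 10 were present among 32498 rows with a gene name and passed the expression filter that left 16852 genes. Bulk RNA-seq was run on tongues of C57BL/6 mice that had all received the carcinogen 4-nitroquinoline 1-oxide (4NQO) in drinking water at 100 µg/mL for 16 weeks. Of these, 6 libraries came from mice gavaged with vehicle (methyl cellulose with Tween-20) and 6 from mice gavaged with gallic acid (GA), a plant phenol, at 100 mg/kg 5 times per week, starting at week 4 and lasting to the end. The labels describe the tissue as tumor together with tissue around it, so a library holds an unstated mix of both, and the labels give no age or sex. By the study's methods the mice were 5 weeks old when bought. The labels number the replicates and name no animal, and 1 mouse per library was assumed. Where 2 libraries came from the same animal, the spread behind the p-values would be technical in part, and the p-values could be too small.

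CXC chemokines with the ELR motif, such as Cxcl1, Cxcl2, Cxcl3 and Cxcl5, attract neutrophils through the receptor Cxcr2, while Ccl2 and Ccl7 attract monocytes through Ccr2, and Ccl3 and Ccl4 act on macrophages, monocytes and lymphocytes through Ccr1 and related receptors. Csf3 encodes granulocyte colony-stimulating factor, which drives neutrophil production through Csf3r, and Il6 encodes a cytokine of the acute phase response. In epithelial lesions these genes are typically induced together by interleukin-1, TNF and interleukin-17, largely through NF-kappaB, in keratinocytes, fibroblasts and myeloid cells.

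Most of the genes lie in clusters, while Il6 and Csf3 lie apart. The sequence before the starts is shown because all 10 genes, in a cluster or not, were high in the same libraries. On GRCm38 (mm10) chromosome 5 the annotation places Cxcl5 at 90759360 to 90761624, Cxcl3 at 90786103 to 90789600, Cxcl1 at 90891241 to 90893115 and Cxcl2 at 90903871 to 90905938, with 10755 bases between Cxcl1 and Cxcl2. Il6 lies apart from them on chromosome 5, at 30013114 to 30019981. On chromosome 11, Ccl2 (82035571 to 82037453) and Ccl7 (82045712 to 82047525) are 8258 bases apart, Ccl3 (83647844 to 83649355, minus strand) and Ccl4 (83662584 to 83664683) are 13228 bases apart, and Csf3 lies at 98701263 to 98703629. None of the 10 shares exon bases with another annotated gene. Annotated transcripts of Cxcl2 and Cxcl3 share a run of 110 identical bases, and those of Cxcl1 with either share at most 23. Only reads that mapped once were counted, so reads inside the shared run of Cxcl2 and Cxcl3 may be missing or divided, and their levels are less certain. RefSeq promoters (GRCm38.p6) were held for 5 of the 10. The 150 bases before the annotated starts are printed 5′ to 3′ for Cxcl1 (chr5:90891091-90891240, plus strand), Cxcl2 (chr5:90903721-90903870, plus strand), Cxcl3 (chr5:90785951-90786100, plus strand), Il6 (chr5:30012964-30013113, plus strand) and Ccl3 (chr11:83649379-83649528, minus strand), with capitals on every match, on either strand, to the kappaB consensus, the sequence that NF-kappaB binds. Each window ends before the earlier of the RefSeq and GENCODE starts.
Cxcl1: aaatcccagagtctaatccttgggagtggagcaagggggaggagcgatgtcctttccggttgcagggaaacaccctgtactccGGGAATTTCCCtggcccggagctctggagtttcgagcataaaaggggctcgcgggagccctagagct
Cxcl2: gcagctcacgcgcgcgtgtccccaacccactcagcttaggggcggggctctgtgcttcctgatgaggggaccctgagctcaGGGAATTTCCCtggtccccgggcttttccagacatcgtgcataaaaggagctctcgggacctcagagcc
Cxcl3: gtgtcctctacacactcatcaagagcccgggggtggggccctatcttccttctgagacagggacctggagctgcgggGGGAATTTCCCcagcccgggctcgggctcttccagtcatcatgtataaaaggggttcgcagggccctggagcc
Il6: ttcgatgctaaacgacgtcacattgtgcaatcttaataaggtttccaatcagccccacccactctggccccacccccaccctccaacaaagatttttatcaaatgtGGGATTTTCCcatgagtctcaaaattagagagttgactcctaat
Ccl3: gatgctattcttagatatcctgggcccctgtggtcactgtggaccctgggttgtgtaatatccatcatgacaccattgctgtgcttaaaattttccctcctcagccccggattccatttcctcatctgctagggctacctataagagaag
Cxcl1, Cxcl2 and Cxcl3 each held GGGAATTTCC, 71, 97 and 73 bases before the RefSeq start, and on each of them a match on the opposite strand overlaps it by all but 1 base. Il6 held GGGATTTTCC 44 bases before its start. The window of Ccl3 held no match. Thus 4 of 5 windows held a match, against 4.63% of 32544 RefSeq promoters over the same 150 bases. A match describes the letters only.

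Library totals recovered from the values ran from 18049161 to 25197240 reads. Before the comparison of groups, 3 libraries must be named. In vehicle 4, vehicle 5 and GA 2, each of the 10 genes was above its level in each of the other 9 libraries. This pattern was met by 1.94% of all tested genes. The summed level of the 10 genes was 87.6, 163 and 78.5 scaled FPKM in vehicle 4, vehicle 5 and GA 2, against 2.22 to 14.4 in the other 9, where FPKM is fragments relative to gene length and library total, and scaled means adjusted between libraries. The neutrophil receptor gene Csf3r reached 7.91, 16.4 and 4.39 scaled FPKM in these 3 and 0.0312 to 0.971 in the other 9. The 3 libraries were set apart by this Csf3r level. Of 14 tested neutrophil markers, 10 were above the other 9 libraries in all 3. These 10 include Csf3r itself and Cxcr2, and leave out S100a8, S100a9, Il1r2 and Lcn2. Also above were 2 of 13 monocyte and macrophage markers (Cd14 and Plac8), 1 of 6 fibroblast markers (Col1a1) and 2 of 6 endothelial markers (Sele and Selp). None of the epithelial, T cell, mast cell, muscle or gland markers were. The defining neutrophil marker Ly6g was at 0 in 10 libraries and at 0.0459 and 0.199 scaled FPKM in vehicle 4 and vehicle 5. Vehicle 5 and GA 2, together with vehicle 3, also held high Lipf, a gland lipase (8765 to 25476 FPKM, at most 0.508 in the others). In bulk tissue, fewer cells of a type and less RNA per cell cannot be told apart. Results on the 10 genes are given with and without vehicle 4, vehicle 5 and GA 2.

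All 10 genes had lower mean log2 levels in the GA group than in the vehicle group, and none passed the test. A lower mean with GA was also found for 53.7% of all tested genes. Log2 fold changes, on the log2(scaled FPKM + 0.1) scale that understates changes of low genes, ran from -2.70 for Cxcl5 to -1.01 for Ccl4, with a median of -1.20, against a median of -0.02 over all genes. All 10 were at -1 or below, as were 1.38% of tested genes. That count fell to 2 of 10 without vehicle 5 (0.89% of genes), to 3 without vehicle 4 (1.4%), to 6 without GA 5 (1.1%), to 2 without vehicle 4, vehicle 5 and GA 2 (1.61%) and to 1 with a pseudocount of 1 (0.243%). With the mean log2 level of the gland markers as a covariate the count was 4 (0.926%). With that of the neutrophil markers it was 0 (0.89%). With limma and Benjamini-Hochberg adjustment over 16852 genes, each member had an adjusted p of 0.999, and 0 of 10 were called. A call required an adjusted p below 0.1 and a log2 fold change of 0.58 or more in either direction. The same limits called 0% of all genes. At an unadjusted p below 0.05 there were 0 of 10 members and 367 genes in all (2.18%), and limma-voom on recovered reads also called 0. Marker lists of some other cell types had lower means with GA as well. This held for 14 of 14 neutrophil markers (median log2 fold change -0.80) and 5 of 5 gland markers (-1.46). It also held for 6 of 6 fibroblast markers (-0.38) and 8 of 8 epithelial markers (-0.37). Of the monocyte and macrophage markers 8 of 13 were lower (median -0.12). Other lists were divided or went the other way. Higher with GA were 5 of 7 muscle markers (median 0.46), 4 of 5 mast cell markers (0.445) and 4 of 6 endothelial markers (0.03). T cell markers were 3 higher and 3 lower (0.01). No marker gene of any list was called. The part of these cell types in the levels of the 10 genes was not tested. In no member did the 2 groups separate, and 0.0653% of tested genes had groups without overlap. Without vehicle 4, vehicle 5 and GA 2, which leaves 4 vehicle and 5 GA libraries, the 10 means were again lower with GA (51.9% of all genes), with log2 fold changes from -2.22 for Cxcl5 to -0.07 for Il6 and a median of -0.64. In these 9 libraries 0 of 10 members passed the limits (0.00593% of genes did), and 1 of 10, Cxcl5, had an unadjusted p below 0.05 (1.5% of genes).

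**Figure D1:**
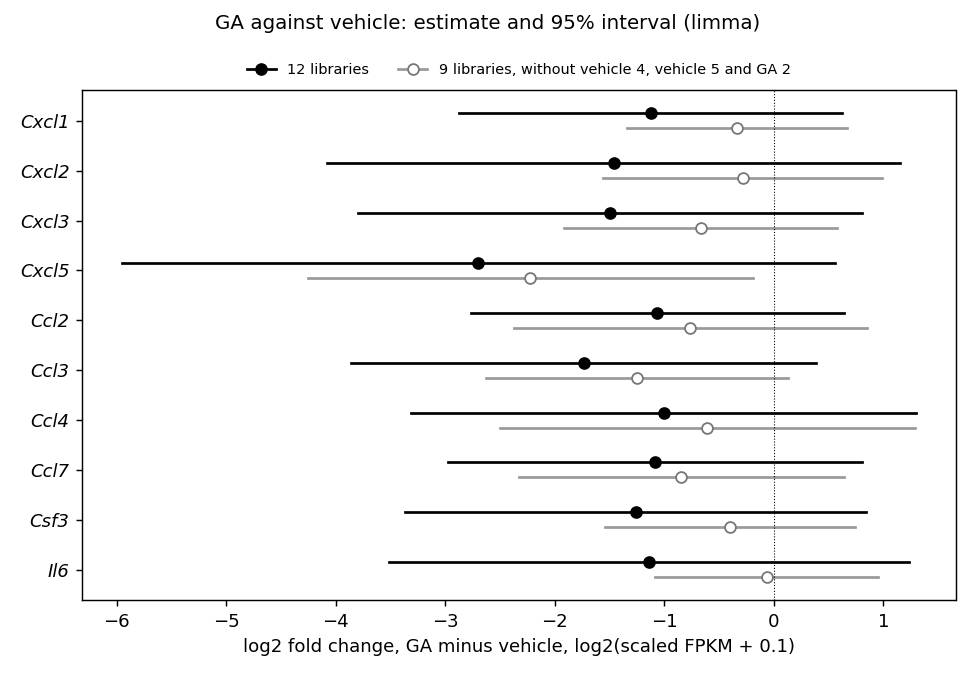
Log2 fold change of each gene, GA minus vehicle, on the log2(scaled FPKM + 0.1) scale (x axis), with limma's 95% interval as a line; black points are from 12 libraries and open points from the 9 left without vehicle 4, vehicle 5 and GA 2. All 20 points lie below 0, each interval from 12 libraries crosses 0, and of the 9-library intervals that of Cxcl5 alone does not, before any adjustment for the number of genes.

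Cxcl5, a neutrophil attractant made mainly by epithelial cells, had the largest difference between the groups. Its scaled FPKM ran from 0.152 to 67.2 with vehicle (median 5.47) and from 0.0788 to 38.4 with GA (median 0.365). Its levels were 32.9, 67.2 and 38.4 in vehicle 4, vehicle 5 and GA 2, and the next libraries were vehicle 3 at 7.05 and vehicle 2 at 3.89. The other 5 GA libraries were all at 0.508 or below, and 5 of 6 GA libraries lay under the vehicle median. The groups overlapped, since GA 2 was second of all 12 and vehicle 1 was among the lowest. The mean was 18.7 ± 26.7 in the vehicle group and 6.65 ± 15.5 in the GA group (SD, n = 6), and the log2 fold change was -2.70 (SE 1.50, limma adjusted p = 0.999, two-sided exact permutation p = 0.139). In the 9 libraries it was -2.22 (SE 0.90, limma p = 0.0350 unadjusted and 1 adjusted), and the exact permutation test over 126 splits gave p = 0.0714. Leaving out 1 library at a time moved it between -3.82 (without GA 2) and -1.96 (without vehicle 5), with a limma adjusted p of 0.789 or more in each case.

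Cxcl1, Cxcl2 and Cxcl3, close relatives that act on the same receptor, were high in the same libraries but in a different proportion. Cxcl1 stood at 12.8, 11.4 and 4.00 scaled FPKM in vehicle 4, vehicle 5 and GA 2, and at 0.339 to 2.23 in the other 9, of which GA 6 was the highest. The remaining vehicle libraries (0.723 to 1.32) lay inside the range of the remaining GA libraries (0.339 to 2.23). Its mean was 4.71 ± 5.75 in the vehicle group and 1.43 ± 1.43 in the GA group (SD, n = 6). Cxcl2 stood at 11.4, 18.4 and 3.46 in the same 3 libraries and at 0.0416 to 0.777 in the other 9. These 3 libraries held 92.8% of its summed level over 12 libraries, against 76.6% for Cxcl1. Cxcl3 stood at 2.96, 9.23 and 1.96, with 0 to 0.520 in the other 9 and 0 reads in 1 library of each group. The log2 fold changes were -1.12 for Cxcl1 (SE 0.81), -1.46 for Cxcl2 (SE 1.21) and -1.50 for Cxcl3 (SE 1.06), with two-sided exact permutation p-values of 0.229, 0.284 and 0.234. Without the 3 libraries they were -0.34, -0.28 and -0.67.

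**Figure D2:**
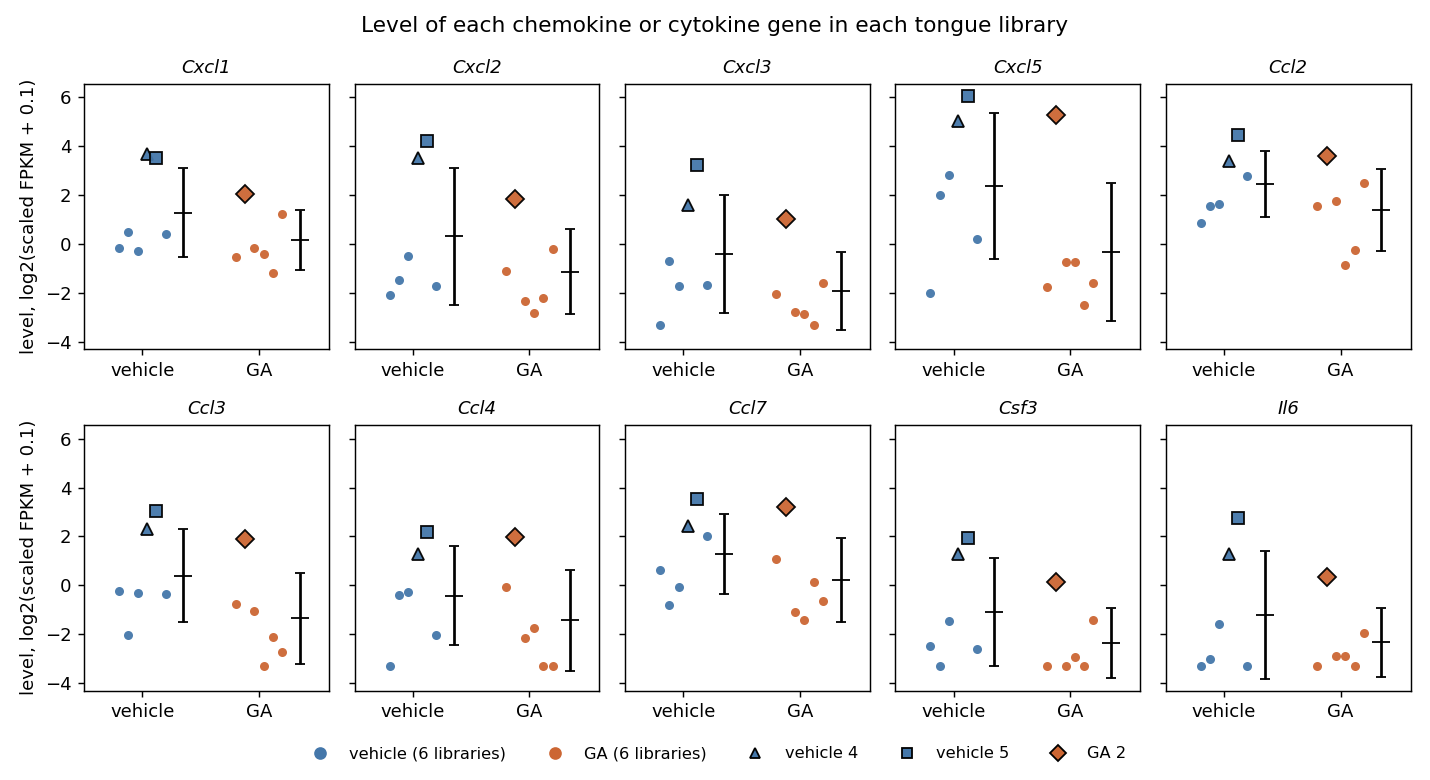
Level of each gene as log2(scaled FPKM + 0.1) (y axis) in 6 vehicle and 6 GA libraries (x axis); each point is 1 library, and the black mark and bar are the mean and SD of the group. In every panel the outlined symbols of vehicle 4, vehicle 5 and GA 2 are the 3 highest points, and the remaining libraries of both groups overlap.

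Ccl2, the main monocyte attractant, was the gene with the highest typical level of the 10. Its scaled FPKM ran from 1.70 to 22.1 with vehicle (median 4.93) and from 0.457 to 12.1 with GA (median 3.08). It was less bound to the 3 libraries than the CXC genes: they held 62.0% of its summed level, and vehicle 6 (6.82) and GA 6 (5.60) followed vehicle 4 (10.5). Means were 7.83 ± 7.71 and 4.17 ± 4.30 (SD, n = 6 each), with a log2 fold change of -1.06 (SE 0.79, exact permutation p = 0.253) and -0.76 in the 9 libraries. Ccl7, which shares the receptor Ccr2, stood at 5.25, 11.4 and 9.09 in vehicle 4, vehicle 5 and GA 2, and again vehicle 6 was next, at 3.97. Its group medians were 2.70 with vehicle and 0.764 with GA, and its log2 fold change was -1.09 (SE 0.87, exact permutation p = 0.284) and -0.84 in the 9 libraries.

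Ccl3 and Ccl4, the macrophage inflammatory proteins, were lower. Ccl3 stood at 4.88, 8.04 and 3.66 scaled FPKM in vehicle 4, vehicle 5 and GA 2, and at 0 to 0.750 in the other 9. Apart from GA 2, the GA libraries reached at most 0.492, and 5 of 6 GA libraries lay below the vehicle median of 0.721. Its log2 fold change was -1.74 (SE 0.98, limma adjusted p = 0.999, exact permutation p = 0.139), and -1.25 (SE 0.61) in the 9 libraries, where Ccl3 had at most 11 reads. With pseudocounts of 0.01 and 1 it was -2.52 and -0.79 over 12 libraries. Ccl4 stood at 2.31, 4.43 and 3.79 in the 3 libraries and at 0 to 0.860 in the other 9, where GA 1 was highest. It had 0 reads in 1 vehicle and 2 GA libraries, and at most 12 reads in any of the other 9. Its log2 fold change was -1.01 (SE 1.06, exact permutation p = 0.416) and -0.61 in the 9 libraries. GA 2 was above vehicle 4 in Cxcl5, Ccl2, Ccl4 and Ccl7, and below it in Cxcl1, Cxcl2, Cxcl3, Ccl3, Csf3 and Il6.

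Csf3 and Il6 were at or near 0 outside the 3 libraries. Csf3 stood at 2.34, 3.78 and 0.993 scaled FPKM in vehicle 4, vehicle 5 and GA 2, with 77, 115 and 32 reads, and at 0 to 0.272 in the other 9, with at most 10 reads. No reads were counted in 1 vehicle and 3 GA libraries. Il6 stood at 2.32, 6.67 and 1.17 with 132, 351 and 65 reads, and at 0 to 0.236 in the other 9, with at most 11 reads and none in 2 libraries of each group. The 3 libraries held 95.5% of the summed level of Il6, the highest share of the 10. Log2 fold changes were -1.26 for Csf3 (SE 0.97, exact permutation p = 0.266) and -1.14 for Il6 (SE 1.10, exact permutation p = 0.368), and -0.40 and -0.07 in the 9 libraries. At these read numbers a difference among the 9 could not be resolved.

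By mean level on the log2 scale over 12 libraries, the order was Ccl2, Cxcl5, Ccl7, Cxcl1, Cxcl2, Ccl3, Ccl4, Cxcl3, Csf3 and Il6, from 1.92 to -1.77. Of the 9 steps between neighbours, that from Cxcl1 to Cxcl2 was larger than the SD of the paired difference (1.13 against 1.01). The other 8 neighbours did not differ beyond their spread. By the median of the 12 libraries, which the 3 high ones move less, Cxcl5 (0.786 scaled FPKM) came below Ccl7 (1.21) and Cxcl1 (1.01), and Cxcl2 (0.309) below Ccl3 (0.583) and Ccl4 (0.431). FPKM values are per exon length, and these lengths were not alike in kind. For Cxcl1, Cxcl2 and Cxcl3 the exon length (1875, 2068 and 3498 bases) was 1 unbroken stretch from annotated start to end. The other members had 2 to 5 separate stretches, with the bases between them left out. A greater length lowers FPKM, so the places of Cxcl1, Cxcl2 and Cxcl3 against the other members are uncertain.

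The relation to neutrophil receptor transcripts was examined over libraries on the log2 scale. Csf3r encodes the receptor for the Csf3 protein, and Cxcr2 the receptor for the CXC members. Over 12 libraries, Pearson's r to Csf3r was positive and called for 10 of 10 members at an adjusted p below 0.1 (permutation test with 100000 resamples, Benjamini-Hochberg over all tested genes), as for 2.94% of all genes. For Cxcr2 the same limit was passed by 0 of 10 members and 0% of genes, while at an unadjusted p below 0.05 there were 10 of 10 members and 8.21% of genes. Because vehicle 4, vehicle 5 and GA 2 stood apart in Csf3r, in Cxcr2 and in each member, no r is given over the 12. Single libraries moved the count for Csf3r: 1 member was called without vehicle 5 (0.357% of genes), 3 without GA 2 (1.35%), 6 without vehicle 4 (4.16%) and 6 without GA 4 (1.9%). Within the 6 vehicle or the 6 GA libraries, 0 of 10 were called for either receptor, as were 0% of all genes (exact permutation test). With 6 libraries there are so few permutations that a call after adjustment over all genes was hardly possible. At an unadjusted p below 0.05 with a positive r there were 9 of 10 members for Csf3r within vehicle (5.96% of genes) and 3 of 10 within GA (5.48%), and for Cxcr2 there were 8 of 10 within vehicle (3.73%) and 1 of 10 within GA (1.94%). Each group contains libraries of the 3 that stand apart.

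**Figure D3:**
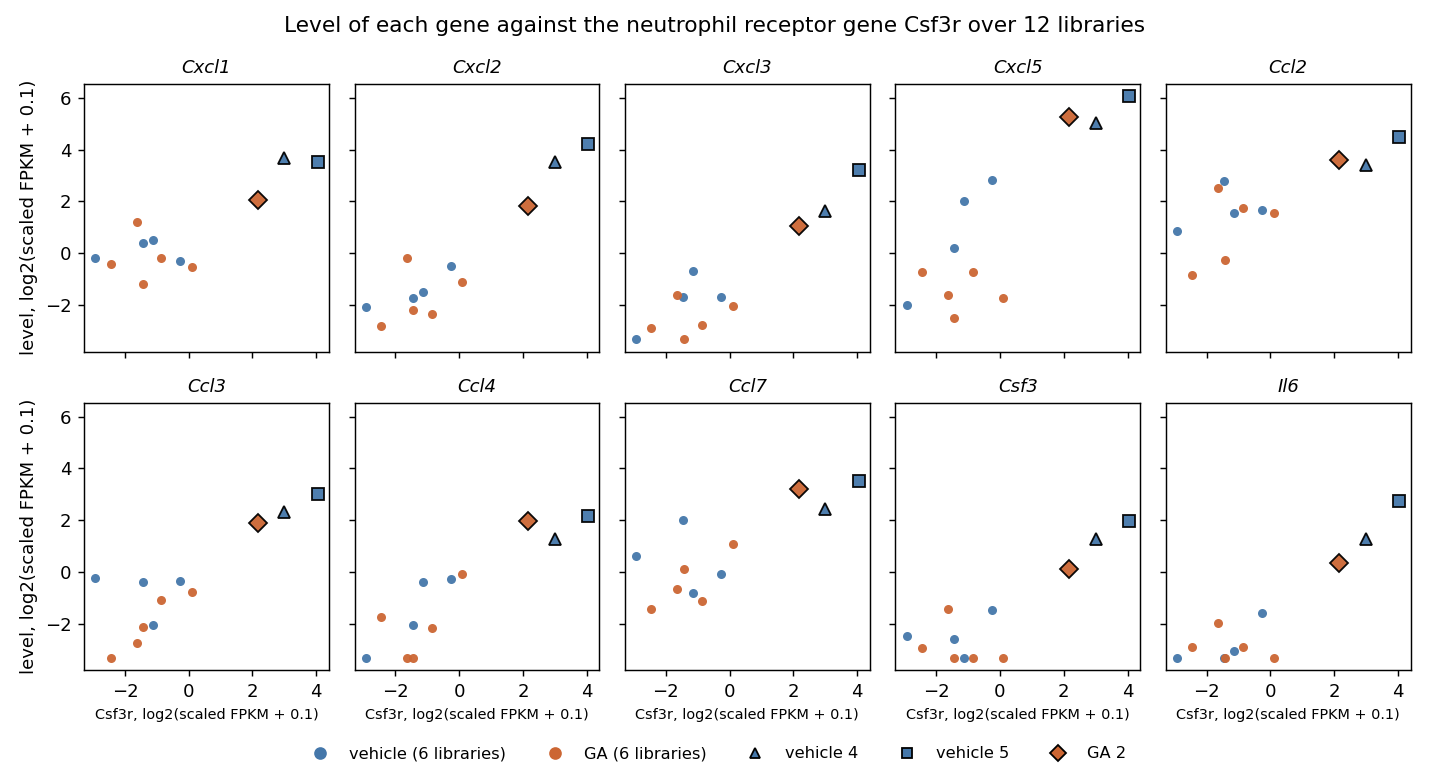
Level of each gene (y axis) against the level of Csf3r (x axis), both as log2(scaled FPKM + 0.1), in 12 libraries; colours mark the groups and outlined symbols mark vehicle 4, vehicle 5 and GA 2. These 3 libraries sit at the upper right of each panel, apart from the other 9, in which r ranged from -0.11 to 0.70.

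In the 9 libraries left without the 3, r to Csf3r ranged from -0.11 for Cxcl1 to 0.70 for Ccl4. The median was 0.34 over the members and -0.08 over all genes. Here 0 of 10 members were called, against 5.03% of genes, and 1 of 10 had an unadjusted exact permutation p below 0.05, against 14.4% of genes. This was Ccl4 (rho 0.68, exact permutation p = 0.0353 for r, adjusted p = 0.154, n = 9). Without the 2 libraries farthest from the median of Csf3r, its r was 0.47. For Cxcr2, r in the 9 ranged from -0.59 for Ccl4 to 0.37 for Cxcl1, and 0 of 10 members had a positive r at an unadjusted p below 0.05 (2.61% of genes) or were called (0.00595% of genes). By Spearman's rho, 1 of 10 members had an unadjusted exact permutation p below 0.05, with a negative rho. The lowest rho of the 10 was -0.695, and rho was not computed over all genes. Csf3r had 2 to 76 reads in these libraries, so relations within them are imprecise.

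The monocyte receptor genes gave another picture. Ccr2, carried by inflammatory monocytes, was highest in GA 1 (5.74 scaled FPKM), then in GA 2 (2.55) and vehicle 5 (2.43), and vehicle 4 was at 0.846. Csf1r, carried by monocytes and macrophages, was also highest in GA 1, at 7.77, although 15.1% of its exon bases overlap Hmgxb3, and no source used here says whether reads were counted by strand. The log2 fold changes were 0.02 for Ccr2 (SE 0.47), -0.12 for Csf1r (SE 0.35), -0.90 for Csf3r (SE 1.16) and -0.52 for Cxcr2 (SE 0.63), each with a limma adjusted p of 0.999. Over 12 libraries, 0 of 10 members were called for Ccr2 (0% of genes) and 0 of 10 for Csf1r (0.92% of genes). Over the 9, 0 of 10 were called for either (0% and 0.238% of genes), and 1 of 10, Ccl4 in both cases, had an unadjusted exact permutation p below 0.05 (3.58% of genes for Ccr2, 8.54% for Csf1r). Ccl4 had r = 0.79 and rho = 0.86 to Ccr2 (exact permutation p = 0.00579, adjusted p = 0.543, n = 9) and r = 0.76 and rho = 0.76 to Csf1r (exact permutation p = 0.0171, adjusted p = 0.239, n = 9). Without the 2 libraries farthest from the receptor's median these were 0.70 and 0.61.

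Between members, 45 pairs were compared. Over 12 libraries all 45 passed an adjusted permutation p below 0.1 over the pairs, and this rests on the 3 libraries. Over the other 9, r ranged from -0.38 for Ccl7 with Il6 to 0.82 for Csf3 with Il6, and 0 of 45 pairs passed (lowest adjusted exact permutation p = 0.261, n = 9). The next highest pairs were Cxcl1 with Ccl2 (r = 0.71), Cxcl2 with Csf3 (0.70), Ccl3 with Ccl7 (0.69) and Cxcl3 with Cxcl5 (0.69).

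Genes whose pattern was most like each member were taken among about 12165 genes averaging 1 FPKM or more, as the 3 with the highest Pearson's r of log2 level over 12 libraries. These r values lay between 0.90 and 0.99 and are a description. Each member was highest in vehicle 4, vehicle 5 and GA 2, so these r values may rest on those libraries. They were not computed without them, and the points of both genes come from the same libraries. Il1b, which encodes interleukin-1 beta, was first for Cxcl3 (r = 0.99) and second for Cxcl1, after Irak3, a brake on Toll-like receptor signalling. Cd14, a co-receptor for bacterial lipopolysaccharide, was among the 3 for Cxcl1, Cxcl2 and Csf3. The C-type lectin genes Clec4n and Clec4d were among the 3 for Cxcl3, and Clec4n also for Il6, whose likest genes were Trem1 and Acod1. The collagen genes Col5a2 and Col12a1 were among the 3 for Cxcl2 and Csf3, Pdpn for Ccl3 and Ccl7, and Twist1 for Ccl4. For Cxcl5 they were Cebpd, Lcn2 and P4ha3. Ccl3 was itself among the 3 for Ccl7 and Cxcl2 was first for Csf3. The remaining ones were Cxcr4 for Cxcl2, Dram1 and Orai3 (2 of the 3) for Ccl2, Pam and Ctsb for Ccl3, Glipr2 and Lcn2 for Ccl4 and Ctsb for Ccl7.

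The rest of the pathway was followed through 4 lists. Among receptors and decoys, 10 of 11 genes were tested, 5 higher and 5 lower with GA (median log2 fold change -0.14), and none was called. Ackr2, a decoy receptor that removes CC chemokines, was the 1 gene with an unadjusted p below 0.05. Its mean was 0.941 ± 0.276 scaled FPKM in the vehicle group and 0.565 ± 0.137 in the GA group (SD, n = 6), with all 6 GA libraries under the vehicle median, and a log2 fold change of -0.63 (SE 0.22, limma adjusted p = 0.999, exact permutation p = 0.0152). It did not share the pattern of the 3 libraries, at 0.585, 1.37 and 0.750 in vehicle 4, vehicle 5 and GA 2 and 0.389 to 1.11 in the other 9. Cxcr2, Ccr1, Csf3r and Ackr1 were above the other 9 libraries in all 3.

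Among 19 tested genes of other myeloid chemokines and growth factors, 16 were lower and 3 higher with GA (median -0.34), and none was called or had an unadjusted p below 0.05. The largest differences were those of Osm, an Il6-family cytokine (-1.35, SE 0.95), and Cxcl10, an interferon-induced T cell attractant (-1.34, SE 1.04), each with a limma adjusted p of 0.999. Osm was high in the 3 libraries (2.20, 3.92 and 1.74 scaled FPKM against at most 0.189 elsewhere), whereas Cxcl10 was at 2.40, 3.40 and 3.97 there and reached 13.3 in the other 9. Among 7 inducers, 6 were lower with GA and none was called. Il1b stood at 37.4, 63.9 and 20.7 in the 3 libraries and at 0.744 to 3.41 in the other 9, and its log2 fold change was -1.66 (SE 1.09, exact permutation p = 0.190). Tnf, at 2.30, 3.05 and 1.52, overlapped the other 9 (0.269 to 1.78), with a log2 fold change of -0.57 (SE 0.51). Il1b was the 1 inducer of 7 above the other 9 libraries in all 3. All 15 signalling and feedback genes were lower with GA (median -0.25), and none was called. Nfkbia, the inhibitor that NF-kappaB induces, was the 1 with an unadjusted p below 0.05. Its mean was 62.2 ± 18.3 scaled FPKM in the vehicle group and 44.7 ± 10.3 in the GA group (SD, n = 6), a log2 fold change of -0.46 (SE 0.19, limma adjusted p = 0.999, exact permutation p = 0.0498). Cebpd, a transcription factor of the acute phase response, had the largest difference (-0.61, SE 0.45).

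**Figure D4:**
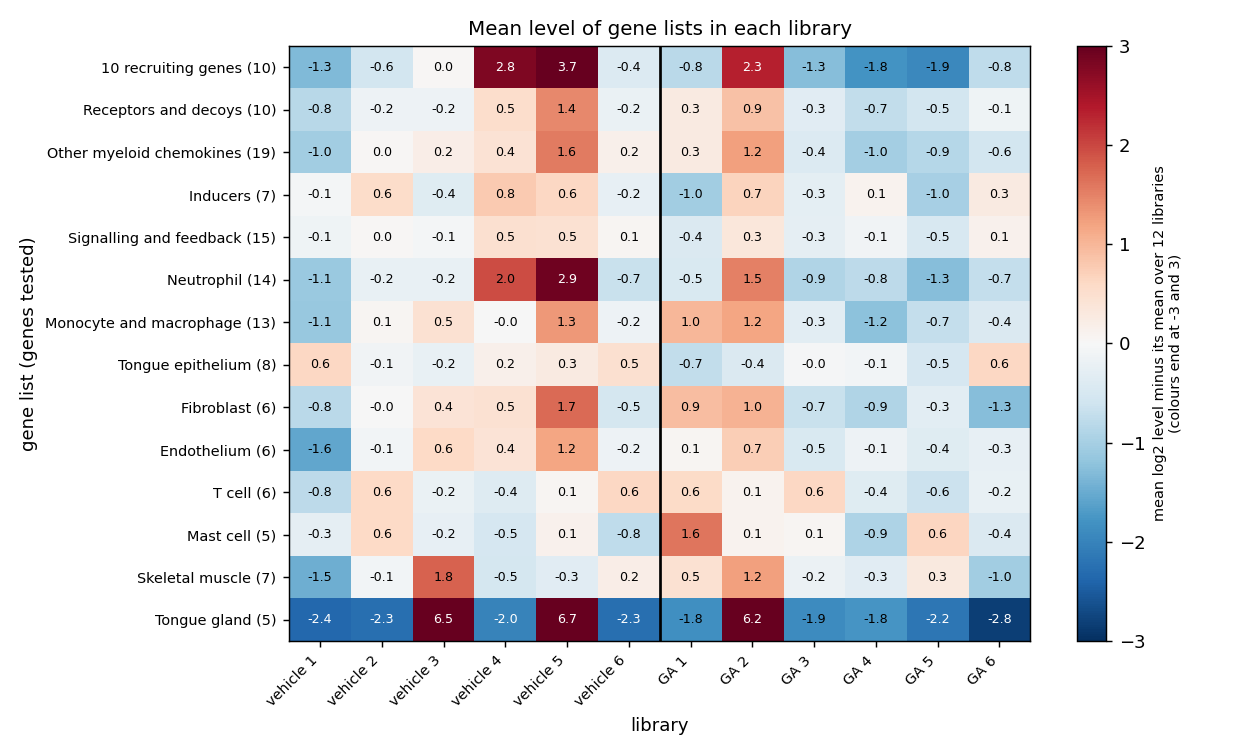
Mean log2 level of each gene list in each library, minus its mean over 12 libraries (colours and printed values, rows with the number of genes tested), with vehicle libraries left and GA libraries right of the line. The 10 recruiting genes, the 4 pathway lists and the neutrophil list are highest in vehicle 4, vehicle 5 and GA 2. The monocyte and macrophage list is highest in vehicle 5 and GA 2 but not high in vehicle 4. The fibroblast and endothelial lists are highest in vehicle 5 and GA 2, with vehicle 4 at rank 4. The gland list is high in vehicle 3, vehicle 5 and GA 2.

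Mean list levels showed the same libraries. The mean log2 level of the 10 genes was 2.58, 3.50 and 2.13 in vehicle 4, vehicle 5 and GA 2 and between -2.14 and -0.17 in the other 9. For the 14 neutrophil markers it was 3.01, 3.97 and 2.56, against -0.24 to 0.83. For the 13 monocyte and macrophage markers vehicle 5 (3.36) and GA 2 (3.24) were the highest of the 12, while vehicle 4 was at 2.03, below GA 1 at 3.04, vehicle 3 at 2.51 and vehicle 2 at 2.10. The fibroblast list was highest in vehicle 5 (5.27) and GA 2 (4.62), with GA 1 (4.49) above vehicle 4 (4.03). The endothelial list was highest in vehicle 5 (3.31) and GA 2 (2.86), with vehicle 3 (2.71) above vehicle 4 (2.52). The 4 pathway lists were higher in each of the 3 libraries than in the other 9. For receptors and decoys the levels were 1.14, 2.03 and 1.47 against -0.24 to 0.86. The receptor list and the neutrophil list both hold Cxcr2 and Csf3r, and the 3 libraries were set apart by Csf3r. The part of neutrophil content in the levels of the 10 genes was not tested. With the mean log2 level of the neutrophil list as a covariate, the log2 fold changes of the 10 genes ran from -0.94 for Cxcl5 to 0.19 for Ccl4 and Il6, with Cxcl2 at 0.00095 and a median of -0.19. This covariate was highest in the same 3 libraries as the 10 genes, so the fit cannot show the part of neutrophil content. Reads from Y-linked genes were present in vehicle 1 to 4 and GA 1, so they were unevenly divided between the groups in every comparison of 12 libraries. With a term for Y-linked reads, the log2 fold changes of the 10 genes ran from -3.39 to -0.92 (median -1.82), and 0 were called. In the 7 libraries without Y-linked reads (5 GA and 2 vehicle, of which vehicle 5 is 1), the 10 genes ran from -3.20 to -1.68 and 0 were called. With Y-linked reads there was 1 GA library, which gives no test.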

How the data were processed

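Tongue RNA from 12 libraries, 6 vehicle and 6 GA, was sequenced by the authors. They used HISAT2 on mm10 and took reads that mapped once through featureCounts. The deposited values are FPKM, and so account for library size and gene length. Rows without a gene name (22965 of 55463, 41.4%) were not used. With GENCODE M21 exon lengths, shortened by 17.1 to 24.4 bases per library, 97.6% to 98.3% of low values came out as whole reads (tolerance 0.02), which gave totals and read numbers. No library duplicated another of its group (Spearman's rho 0.899 to 0.982). Between libraries, values were scaled by the unweighted trimmed mean of M values (factors 0.877 to 1.09). Genes averaging 0.1 FPKM or more were tested with limma 3.58.1 (R 4.3.3, trended eBayes) on log2(scaled FPKM + 0.1) in place of the count test of the study's methods, with its limits (adjusted p below 0.1, log2 fold change of 0.58 or more either way). Two-sided exact permutation tests covered 924 splits of 12 libraries into 6 and 6, and the smallest p they allow is 0.00216. Relations over under 10 libraries used all permutations, otherwise 100000. The test was checked on made-up values of known change before use. The 10 genes and the pathway and marker lists were chosen with earlier results of these data known. Named besides the members were 4 receptor genes, the 3 likest genes of each member, and, from each pathway list, genes with an unadjusted p below 0.05 and the 2 with the largest change; 1 likest gene is not reported here. Alternatives were another pseudocount, filter, scaling or variance model, covariates, leaving out libraries, limma-voom on recovered reads, and Spearman's rho. The fits without vehicle 4, vehicle 5 and GA 2 were added after the data were seen. Replicate numbers did not pair the libraries. Figures were drawn with matplotlib 3.10.9. Interval bounds are those of limma at 95%.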

Additional observations from a re-analysis of the deposited data

Results flagged for a closer look

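Within each group of 6 libraries, the gap between the extreme library and its nearest neighbour was divided by the group's range, for 28 groups (14 genes in both treatments). In 12 of the 28 it passed Dixon's 95% limit of 0.625. Chance flags about 1 in 20 under that limit for normally distributed values only. The ratios were taken on scaled FPKM, which are skewed, and not on the log2 scale of the other tests. That rate therefore does not apply here, and the ratios are a description. The genes are also not independent. GA 2 was the highest GA library, far from the next, for Cxcl5 (ratio 0.989, 38.4 against 0.508 scaled FPKM), Cxcl3 (0.883, 1.96 against 0.229), Ccl3 (0.865, 3.66 against 0.492), Il6 (0.865, 1.17 against 0.157), Ccl7 (0.804, 9.09 scaled FPKM), Csf3r (0.794, 4.39 against 0.971), Cxcl2 (0.785, 3.46 against 0.777), Ccl4 (0.773, 3.79 against 0.860) and Csf3 (0.726, 0.993 against 0.272). Vehicle 5 was the highest vehicle library for Cxcl3 (0.679, 9.23 against 2.96 in vehicle 4) and Il6 (0.653, 6.67 against 2.32). GA 1 was the highest GA library for Ccr2 (0.633, 5.74 against 2.55 in GA 2). For Cxcl1, Ccl2, Cxcr2 and Csf1r no library was beyond the limit in either group.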

How the results depend on the processing

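No member was called under any of 27 alternatives, and the direction lower with GA held for all 10 (for 8 of 8 under the stricter filter) in each of them except the neutrophil term, where Cxcl2 (0.00095), Ccl4 (0.19) and Il6 (0.19) were not lower. The count over all genes was 367 at an unadjusted p below 0.05, 2 in the libraries without Y-linked reads (Gm25290 and Gm23390), 1 without vehicle 4, vehicle 5 and GA 2, and 0 to 1 with 1 library left out (Gm25290 without vehicle 4), genes named after their values were seen. The count of members related to Csf3r was 10 with all libraries (2.94% of genes) and 1 to 10 with 1 library left out (0.357% to 4.95%). The count was 1 without the 2 libraries farthest from the median (3.04% of genes). Within vehicle, within GA, in the libraries without Y-linked reads and without the 3 libraries with high Lipf, 0 members and 0% of genes were called. In the groups of 6 libraries the few permutations made a call hardly possible. At an unadjusted permutation p below 0.05 with a positive r, 9 of 10 members passed without Y-linked reads (8.53% of genes). Without the 3 libraries with high Lipf, 5 of 10 did (4.57%). Without vehicle 4, vehicle 5 and GA 2 the count called was 0 (5.03% of genes). In those 9 libraries r was -0.11 for Cxcl1 and -0.073 for Csf3. For Cxcr2 the count was 4 with deviations from the group means (0.285% of genes). For Csf1r it was 0 to 1 with 1 library left out (Ccl4 without vehicle 4, as for 262 of 16842 genes). The cause of these shifts was not tested, apart from the libraries each left out. Same-numbered vehicle and GA libraries had correlated deviations of -0.37 to 0.08, so the numbers were not taken as pairs, and with the replicate block 0 genes and 0 members were called. Depth limits Csf3, Il6, Ccl3 and Ccl4, which had at most 12 reads in any of the 9 libraries outside vehicle 4, vehicle 5 and GA 2.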
